A study of Mus musculus with 2 samples.

Results

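The interleukin 1 family genes *Il1a*, *Il1b*, *Il1rn*, *Il1r1*, *Il1r2*, *Il1rap*, *Il18* and *Il33* were followed through the cells of the unwounded and wounded mouse cornea. They were chosen by name, as 8 of the 20198 genes in the count table, and all 8 had counts in both libraries. Single-cell RNA-seq on the 10x droplet platform counted RNA molecules by their unique molecular identifiers (UMIs) in 2 libraries. The UW library pooled the corneas of 4 normal mice and held 16450 cells, and the W library pooled those of 4 mice collected 24 h after the central corneal epithelium was scraped off and held 12417 cells. The mice were males aged 6 to 8 weeks, each library held 8 corneas, and no strain is given in the sources used here. In the paper's methods wounding went with pentobarbital anesthesia, topical procaine, fluorescein stain and ofloxacin. Whether UW mice also received these is not stated, so they cannot be told apart from the wound. Only the central epithelium was removed while whole corneas were taken, so the W library mixes cells near to and far from the wound. Each condition was a single pool. The study also assigned cells to mice by genotype, and that assignment was not used here. With 1 library a condition no test between conditions was run, and every interval below is a 95% interval that covers counting error only.

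Interleukin 1 alpha and beta both bind the receptor IL-1R1, which signals only once it has recruited the accessory protein IL-1RAP. *Il1rn* encodes the receptor antagonist, which occupies IL-1R1 without recruiting the accessory protein, and *Il1r2* encodes a decoy receptor that binds ligand but lacks a signalling domain. Epithelial cells store IL-1 alpha, IL-33 and IL-18 and can release them on damage, whereas IL-1 beta is made mainly by activated myeloid cells and is cut to its active form by caspase-1.

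Cells were taken by the 17 deposited clusters, which carry numbers and no names. Clusters 1 to 9 and 11 were epithelial. Among them clusters 3, 8, 9 and 11 scored highest for basal-layer markers, with cluster 3 led by *Krt18* and *Ppbp* and cluster 9 by *Wfdc18* and *Dlk2*. Cluster 5 carried the conjunctival markers *Krt4* and *Krt19*, cluster 1 was led by *Pygl* and *Sphkap*, clusters 2, 4 and 6 were led by *Ly6g6c* and *Spink5*, *Cldn17* and *Dsg1a*, and *Upk3b* and *Krt78*, and clusters 8 and 11 were cycling cells led by *Top2a* and *Ung*. Cluster 7, led by *Lce3a* and *Lce3f*, scored low for the broad epithelial markers and high for those of the upper layers, and was kept with the epithelium. Cluster 0 was keratocyte-like (*Kera* and *Tmem132c*), and cluster 10, led by *Penk* and *Myoc*, was left unnamed. Of the marker lists it scored highest for corneal endothelium at 2.35, then Schwann cells and nerve at 2.21 and keratocytes and stroma at 1.71, and *Col8a1* was among its leading genes. The 2 clusters are called stromal below for the keratocyte and stroma markers they share. The immune clusters were nearly confined to W. Cluster 13 was neutrophil-like and held 1 UW and 710 W cells, cluster 14, led by *H2-Aa* and *H2-Eb1*, held 7 and 354, the monocyte/macrophage-like cluster 15 held 0 and 251, and cluster 16 held 7 and 215. It was led by *Cd3g* and *Ctla2a*, scored 3.92 for T/NK markers and 3.87 for mast cell and basophil markers, and was left unnamed. Levels are given for clusters with at least 50 cells in a library, as CPM, the UMIs of a gene in every 1000000 UMIs of the summed cluster. They compare one gene across cells and not genes with each other, since 3′ counts are not scaled by length.

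Library facts bear on several values below. The median depth was 22014 UMIs per cell in UW and 20290 in W, but 2509.5 in the neutrophil-like cells. The libraries shared 52 cell barcodes. Markers of other cells were found in every cluster, whether as free RNA or as doublets, which cannot be told apart here. Their levels are used below as the background. In W, *Clec4d*, *Csf3r*, *Cxcr2*, *Retnlg*, *Tyrobp*, *Ptprc* and *Srgn*, which epithelial cells should lack, stood in epithelial clusters at no more than 0.452% of their level in cluster 13. These 7 were taken from 10 immune markers after their values were seen. The other 3 reached higher, *S100a8* and *S100a9*, which epithelium can also express, up to 2.12% and 4.85%, and *Lyz2*, whose level peaks in cluster 15, up to 3.86%. Positions among all 10 are given below beside those among the 7. In the other direction, the epithelial genes *Krt12*, *Krt5*, *Krt14*, *Perp* and *Dsp* stood in cluster 13 at 12.6% to 24.1% of their highest epithelial level, in cluster 14 at 19.8% to 25.8%, in cluster 15 at 4.39% to 7.61%, and in the keratocyte-like cluster 0 at 2.59% to 4.80%.

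The genes lie on 5 chromosomes of the mouse genome (GRCm38, GENCODE M21). *Il1a* (chr2:129299610-129309972) and *Il1b* (chr2:129364570-129371139) are neighbours on the minus strand of chromosome 2, and *Il1rn* (chr2:24336853-24351494) lies on the same chromosome beside the interleukin 36 genes. *Il1r2* (chr1:40074079-40125231) and *Il1r1* (chr1:40225080-40317257) begin the receptor array of chromosome 1, followed by *Il1rl2*, *Il1rl1*, *Il18r1* and *Il18rap*. *Il1rap* is at chr16:26581704-26730117, *Il18* at chr9:50554827-50581840 and *Il33* at chr19:29925114-29960718. The neighbours *Il1r2* and *Il1r1* did not share a cluster of highest level, which was 7 for the first and 5 for the second in UW, and 13 and 10 in W. *Il1b* overlaps the antisense transcript *Il1bos*, and *Il18* overlaps *Bco2* and *Tex12* on the opposite strand, and the use of strand in the counting is not stated in the sources used here.

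Promoters are shown because several of the genes differed between the libraries in the same cells, and the letters of factors known to act downstream of injury can be looked for in them. The RefSeq table of GRCm38.p6 holds 12 promoters of the 8 genes, each running from 250 bases before to 50 after a transcription start. They were searched on both strands for the NF-kappaB consensus, for the AP-1 letters TGANTCA and for the C/EBP letters TTGCNNAA, which do not overlap in the windows printed. Of all 32851 promoters in the table, 8.46% held the first, 7.81% the second and 10.8% the third. Of the 12, 5 held a match and 7 held none, among them the single promoters of *Il1b*, *Il1r2*, *Il1rap* and *Il18*. The matches are printed below with up to 30 bases on each side, 5′ to 3′ on the strand of the gene, with no transcribed base and with the matching letters in capitals. The windows of the second promoters lie in introns of their own genes, and the others lie in no annotated gene.
Il1a, AP-1 letters 12 bases before the start, chr2:129309973-129310014, minus strand: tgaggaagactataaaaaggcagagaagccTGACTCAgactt
Il1rn, first promoter, AP-1 letters 141 bases before the start, chr2:24336689-24336755, plus strand: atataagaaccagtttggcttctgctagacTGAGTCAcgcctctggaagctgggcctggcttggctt
Il1r1, first promoter, C/EBP letters 133 bases before the start, chr1:40224917-40224984, plus strand: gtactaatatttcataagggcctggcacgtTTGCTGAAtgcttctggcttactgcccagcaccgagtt
Il1r1, second promoter, NF-kappaB consensus on the opposite strand 232 bases before the start, chr1:40266336-40266393, plus strand: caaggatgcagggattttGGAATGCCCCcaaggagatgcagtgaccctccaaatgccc
Il33, second promoter, C/EBP letters 85 bases before the start, chr19:29945675-29945742, plus strand: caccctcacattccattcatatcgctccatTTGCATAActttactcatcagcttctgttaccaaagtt
Both AP-1 matches read the same motif on each strand. A match says only that the letters are there, and the 3′ counts do not show which promoter of *Il1rn*, *Il1r1* or *Il33* was used.

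*Il1a*, the alarm cytokine stored in epithelial cells, was an epithelial transcript in both conditions. The epithelial clusters held 99.3% of its 19952 UMIs in UW and 95.03% of its 28803 UMIs in W. In UW its level was highest in the upper-layer cluster 7 at 129 CPM (interval 125 to 133), followed by cluster 2 at 85.3 and cluster 4 at 80.4, and it was lowest among epithelial clusters in cluster 9 at 5.12. In W the neutrophil-like cluster 13 came first at 271 (248 to 296), ahead of epithelial clusters 6 at 238, 2 at 225 and 4 at 210. The intervals of clusters 6 and 2 overlapped, so their order is not settled.

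The level of *Il1a* was higher in W in each of the 10 epithelial clusters, with every interval above 0. The log2 ratio of W over UW ran from 0.50 in cluster 7, which had been the highest, to 3.52 in cluster 3, with a median of 1.56. In cluster 3, which carries basal-layer markers, *Il1a* was at 12.9 CPM before the wound and at 148 after it, an 11.5-fold difference, and the share of its cells with an *Il1a* UMI was 16.9% in UW and 71.0% in W. After each cell was thinned to 2000 UMIs these shares were 1.86% and 23.4%, so the difference was also seen at equal depth. The makeup of cluster 3 moved too, with summed levels from 10510 to 23552 CPM for 8 basal-layer markers, from 6320 to 1957 for 9 upper-layer markers, from 10552 to 4387 for 9 keratocyte and stroma markers and from 8.70 to 566 for 8 neutrophil markers. The part of this in the ratios of cluster 3, for *Il1a* and the other genes, was not tested. Cluster 7 differed least, from 129 to 182 CPM. Cluster 9, which had least in UW, went from 5.12 to 9.96 CPM, a log2 ratio of 0.96.

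Summed over all epithelial cells the same gene moved less, from 59.5 to 115 CPM, a log2 ratio of 0.94 (0.92 to 0.97). The W library held a smaller share of cells of clusters 1, 2, 6 and 7 and a larger share of the cycling cluster 8, and such a sum takes in both level and composition. With each epithelial cluster weighted equally the ratio was 1.51. In the stromal clusters *Il1a* stood at 3.83 and 7.67 CPM in cluster 0 and at 4.38 and 7.57 in cluster 10, which is 2.97% to 3.39% of the highest epithelial level and inside the range of the epithelial markers there. These stromal values were thus not above background.

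*Il1b*, the ligand of activated myeloid cells, was almost absent before the wound. The whole UW library held 157 UMIs of it in 148 of 16450 cells, and no cluster passed 0.938 CPM. In W there were 11311 UMIs. The neutrophil-like cluster 13 stood at 2736 CPM (2661 to 2813), cluster 14 at 749 (722 to 778) and the monocyte/macrophage-like cluster 15 at 665 (635 to 696), while cluster 16 stood at 7.70 (3.32 to 15.2). The first 3 do not overlap each other. In cluster 13, 78.6% of cells had an *Il1b* UMI, with 77.7% after thinning, against 55.4% and 39.5% in cluster 14 and 59.4% and 37.1% in cluster 15. Thinning left out cells under 2000 UMIs, so the second shares are over 584 of 710, 296 of 354 and 251 of 251 cells.

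These cells were few and shallow and yet held most of the transcript. Cluster 13 made up 5.72% of W cells and 0.634% of W UMIs and held 44.4% of the *Il1b* UMIs, cluster 14 held 24.4% and cluster 15 held 15.9%. The epithelial clusters held 12.2%. There *Il1b* ran from 2.97 CPM in cluster 2 to 12.8 in cluster 3, or 0.109% to 0.470% of the level in cluster 13. The 7 immune markers above reached up to 0.452% in the same clusters, and *Il1b* exceeded the highest of them in 4 of 10 clusters, by at most 1.21 times. Of all 10 markers, 3 to 8 stood above it in each cluster. The log2 ratio of 3.64 (3.40 to 3.89) in the summed epithelium, from 0.462 to 5.78 CPM, thus rests on levels near those of markers that epithelium should lack. Without the cells that held a UMI of 6 immune markers, 26.5% of the epithelial cells in W, the ratio was 2.90. The 2.16 CPM of cluster 0 was below the highest of the 7 markers there.

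*Il18*, which needs caspase-1 to mature and is best known for driving interferon gamma in T and NK cells, was lower after wounding in the summed epithelium. The epithelium held 99.3% of its UMIs in UW and 97.05% in W. In UW it was highest in clusters 2 at 387 CPM (382 to 392), 6 at 356 (351 to 362) and 4 at 258 (253 to 262), and low in cluster 3 at 31.8 and cluster 9 at 13.8. In W the same 3 clusters stood at 231, 244 and 162, with log2 ratios of -0.74, -0.55 and -0.67. It was lower in 3 of 10 epithelial clusters and higher in 6, with an interval that held 0 in the remaining cluster. Cluster 7 went from 159 to 205 CPM, cluster 5 from 117 to 123, and the largest ratio was 0.37. Layer markers moved within clusters 2, 4 and 6 as well. The summed level of 9 upper-layer markers went from 24180 to 13828 CPM, from 14550 to 6607 and from 48591 to 26606, and that of 8 basal-layer markers from 15631 to 30784, from 17146 to 30537 and from 7708 to 19887. Their part in the *Il18* values was not tested.

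No epithelial cluster was past 2-fold for *Il18*. The summed epithelium went from 200 to 102 CPM, a log2 ratio of -0.98, while equal weighting of the clusters gave -0.31. The sum takes in the lower level within clusters 2, 4 and 6 and also the smaller share of those cells in W. In cluster 13 *Il18* stood at 42.0 CPM, 17.2% of its highest epithelial level, inside the range of the epithelial markers there, and in the stroma of W it stood at 3.05% and 5.08%, where those markers ran from 2.59% to 4.80% in cluster 0 and from 3.06% to 5.85% in cluster 10. In cluster 10 of UW it stood at 5.25% (4.34% to 6.30%), where the highest of those markers was at 5.06%. In the monocyte/macrophage-like cluster 15 it stood at 41.0 CPM, 16.8% of the highest epithelial level (13.8% to 20.2%), above the 7.61% that the epithelial markers reached there.

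*Il33*, a nuclear alarmin whose receptor is ST2, the product of *Il1rl1*, marked the conjunctival-type cluster 5 in UW. That cluster stood at 33.7 CPM (31.5 to 36.0) and held 53.2% of the 1708 *Il33* UMIs with 6.69% of the cells, and the next cluster, 2, stood at 5.98. In W all 10 epithelial clusters were higher, with every interval above 0 and a median log2 ratio of 2.38. The summed level of the 4 conjunctival markers was higher in W in the same 10 clusters, from 9603 to 13197 CPM in cluster 5 and from 201 to 785 in cluster 3, and its part in the *Il33* values was not tested. Cluster 5 remained first at 51.4, and cluster 3 was second at 19.8 (18.1 to 21.8) after 0.854 in UW, a log2 ratio of 4.54 and the largest of the 10. The share of cluster 3 cells with an *Il33* UMI was 1.57% in UW and 15.4% in W, or 0.0565% and 3.05% after thinning.

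In the keratocyte-like cluster 0, *Il33* went from 0.457 to 3.11 CPM, a log2 ratio of 2.77. The W value was 6.05% of that in cluster 5 (4.93% to 7.35%), just above the 4.80% that the epithelial markers reached there. In cluster 10 it stood at 2.45 and 2.76 CPM, with an interval of the ratio that held 0.

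The receptor antagonist *Il1rn* was also an epithelial transcript at rest and became shared with myeloid cells after wounding. In UW cluster 5 stood at 53.2 CPM (50.5 to 56.0) and held 38.2% of the 3756 UMIs, followed by cluster 6 at 17.5 and cluster 2 at 14.2. In W cluster 13 stood at 1177 (1128 to 1228), cluster 15 at 290 (270 to 311) and cluster 14 at 136 (124 to 148). The epithelium then held 48.9% of the 7109 UMIs and the 4 immune clusters 48.7%, with 12.3% of the cells.

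Epithelial clusters differed in direction. *Il1rn* was higher in W in 8 of 10 clusters, most in cluster 3 from 0.885 to 5.85 CPM (log2 ratio 2.72), and lower in cluster 5, from 53.2 to 35.03 (log2 ratio -0.60). Cluster 2 had an interval that held 0 and changed direction with TMM scaling. In W these levels were 0.484% to 2.98% of that in cluster 13, above all 7 immune markers in 10 of 10 clusters and at 2 or more times the highest of them in 9. The exception was cluster 3, at 1.10 times that marker. Of all 10 markers, 1 to 3 stood above *Il1rn* in each cluster, and the part of immune background in the differences was not tested. In clusters 1, 3, 8, 9 and 11 the UW levels had been under 4 CPM.

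The ratio of antagonist to agonist, as *Il1rn* UMIs over *Il1a* plus *Il1b* UMIs, went from 0.186 to 0.121 in the summed epithelium. In cluster 5 the UW value was 1.92 (1.76 to 2.10) and the W value 0.346 (0.324 to 0.369). In cluster 2 it went from 0.165 to 0.0588 and in cluster 6 from 0.339 to 0.0995. Cluster 4 went from 0.0495 (0.0422 to 0.0577) to 0.0296 (0.0249 to 0.0349), and cluster 3 from 0.0647 to 0.0363 with intervals that just overlap. It was higher after wounding in cluster 1, from 0.0218 (0.0167 to 0.0281) to 0.0457 (0.0362 to 0.0570), and in cluster 7, from 0.0710 (0.0633 to 0.0793) to 0.108 (0.0941 to 0.123). In cluster 9 the intervals overlap, at 0.707 (0.424 to 1.17) before and 1.07 (0.926 to 1.25) after wounding, and its *Il1a* was among the lowest. The neutrophil-like cluster stood at 0.391 and the monocyte/macrophage-like cluster 15 at 0.379. These are ratios of UMIs of different genes and are meant only for comparing cells.

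**Figure D1:**
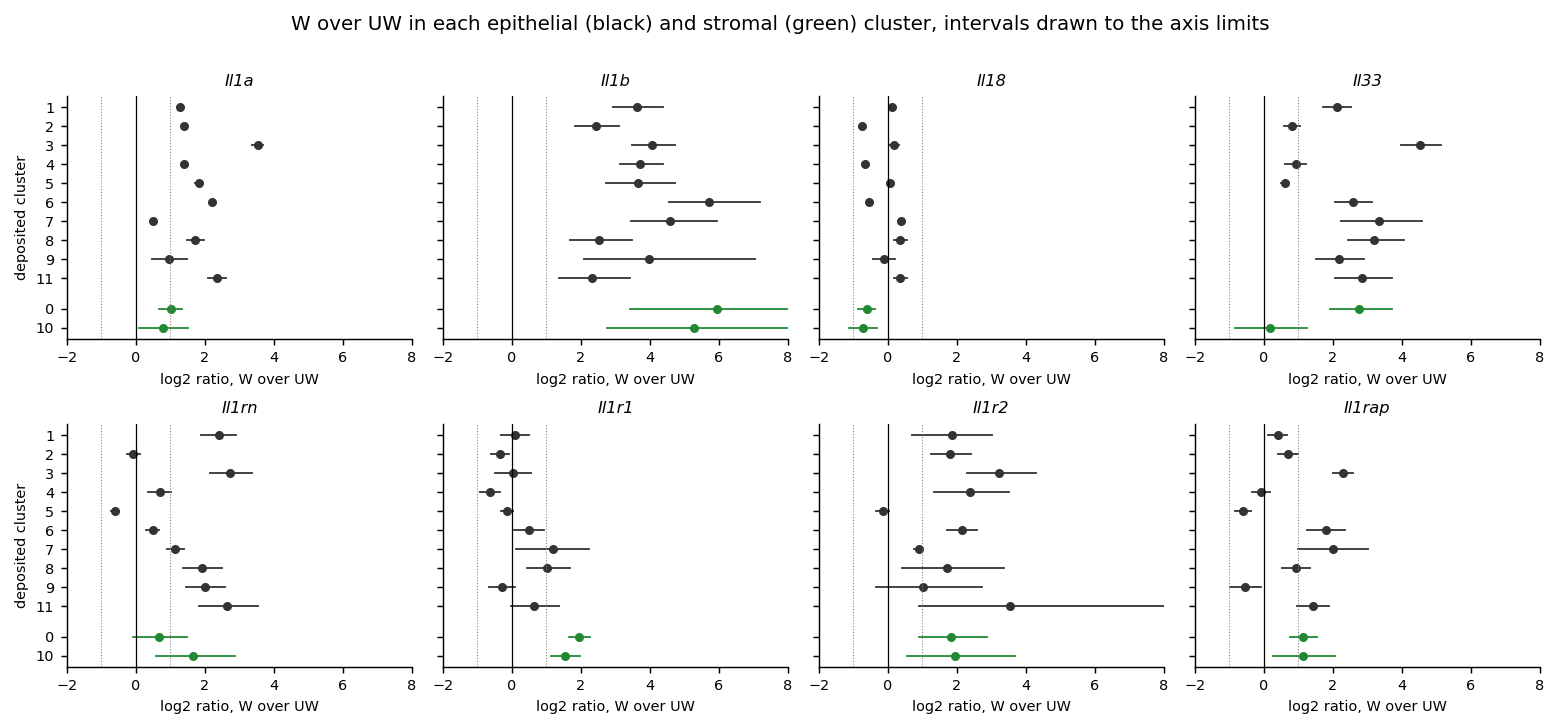
Log2 ratio of W over UW for each of the 8 genes in each epithelial (black) and stromal (green) cluster, with 95% intervals for counting error in 1 library each and dotted lines at 2-fold. *Il1a*, *Il1b* and *Il33* lie to the right of 0 in all 10 epithelial clusters, *Il18* lies within -0.74 and 0.37, and *Il1r1* is past 2-fold in both stromal clusters.

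*Il1r1*, the signalling receptor, was thinly expressed and was past 2-fold in both stromal clusters. In the keratocyte-like cluster 0 it went from 3.90 CPM (3.21 to 4.70) to 15.01 (13.7 to 16.4), a log2 ratio of 1.94 (1.64 to 2.25). In cluster 10 it stood at 10.7 (8.17 to 13.7) and 30.9 (27.2 to 34.9), a ratio of 1.53. Cells of cluster 0 with an *Il1r1* UMI were 4.35% in UW and 21.6% in W, and 0.806% and 2.74% after thinning, at median depths of 11853 and 17588. Cluster 0 held 4.87% of *Il1r1* UMIs in UW and 19.4% in W, and cluster 10 held 2.68% and 10.2%. The makeup of both clusters moved too. The summed level of 9 keratocyte and stroma markers went from 81170 to 44952 CPM in cluster 0 and from 76943 to 51834 in cluster 10. In cluster 0, 5 blood vessel markers went from 217 to 77.0 CPM, and in cluster 10, 6 corneal endothelium markers from 2203 to 1234. The part of this in the stromal ratios, for *Il1r1* and the other genes, was not tested.

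The epithelium as a whole gave 6.33 and 6.93 CPM, a log2 ratio of 0.13 (0.04 to 0.23) that was negative under TMM scaling (-0.074) and without the conjunctival cluster (-0.056). Cluster 5 was the epithelial cluster with most *Il1r1* in both libraries, at 20.04 and 18.2. Clusters 2 and 4 were lower in W, from 9.18 to 7.25 and from 8.71 to 5.65. Cluster 7, which had most *Il1a* and *Il1r2* in UW, had the least *Il1r1*, at 0.551 and 1.26. That was a log2 ratio of 1.19 (0.12 to 2.23) on 20 and 15 counts. In the cycling cluster 8 it went from 2.03 to 4.15 CPM, a ratio of 1.03 (0.44 to 1.68), and in cluster 6 from 3.38 to 4.77, a ratio of 0.50 (0.07 to 0.92). In W the neutrophil-like cells had 12 UMIs of *Il1r1*, or 6.54 CPM (3.38 to 11.4). That was 35.9% of the highest epithelial level (18.6% to 62.8%), an interval that overlaps the 12.6% to 24.1% of the epithelial markers there. The cells of cluster 16 had 22, or 21.2 (13.3 to 32.1).

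*Il1rap*, the accessory protein shared by the receptors for IL-1 and IL-33, was highest in cluster 5 in UW at 11.5 CPM (10.3 to 12.9). In W cluster 13 came first at 144 (127 to 162) and cluster 3 second at 19.6 (17.8 to 21.5) after 4.00 in UW, a log2 ratio of 2.30. It was higher in 7 of 10 epithelial clusters and lower in clusters 5 and 9, at ratios of -0.60 and -0.54. Cluster 4 was near even and changed direction with TMM scaling. In every epithelial cluster of W *Il1rap* was at least 4.70 times the highest of the 7 immune markers relative to cluster 13. It was above all 10 markers in 8 of 10 clusters, and in clusters 6 and 7 it was below 2 of them.

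Cells with UMIs of both *Il1r1* and *Il1rap*, the pair needed to signal, were most frequent in cluster 5, with 113 cells or 10.3% in UW and 93 or 7.74% in W. In cluster 0 there were 6 cells (0.253%) in UW and 38 (2.21%) in W, and in cluster 10 there were 1 (0.177%) and 16 (2.53%). After thinning to 2000 UMIs at most 2 such cells were left in any of these, so a difference in pairing was not detectable at equal depth.

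*Il1r2*, the decoy receptor, was found in upper-layer epithelium and in myeloid cells. In UW cluster 7 stood at 28.9 CPM (27.2 to 30.7) and held 62.6% of the 1677 UMIs, cluster 5 stood at 16.1 (14.6 to 17.7), and no other cluster passed 1.84. In W cluster 13 stood at 807 (766 to 849) and held 40.0% of the UMIs, cluster 14 stood at 124 (113 to 136), and cluster 7 at 53.6 (49.5 to 57.9), a log2 ratio of 0.89. Cluster 5 was near even at 14.5.

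Of the epithelial clusters of W, 3 stood at 2 or more times the highest of the 7 immune markers, and these were 5, 6 and 7, with the highest value in cluster 7. Of all 10 markers, none stood above *Il1r2* in cluster 7, 1 did in cluster 5 and 2 did in cluster 6. In cluster 2 it was 1.31 times that marker and in the other 6 it was below it. The log2 ratios in those 6, up to 3.56, rested on levels of at most 3.15 CPM in W.

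The balance of decoy to signalling receptor differed between kinds of cell. It is a ratio of UMIs of different genes, read only between cells. The count of *Il1r2* over *Il1r1* was 123 (70.4 to 239) in the neutrophil-like cells, on the 12 *Il1r1* UMIs noted above, 14.8 in cluster 14 and 42.7 in cluster 7 of W, where it had been 52.5 in UW. It was 0.868 in the monocyte/macrophage-like cluster 15 and 0.101 in cluster 0, where it had been 0.108. Within the myeloid clusters *Il1r2* separated clusters 13 and 14 from 15 while *Il1b* was shared by all. In the neutrophil-like cells, 394 of 710 had both *Il1b* and *Il1r2* UMIs, 354 had both *Il1b* and *Il1rn*, and 4 had both *Il1r1* and *Il1rap*.

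**Figure D2:**
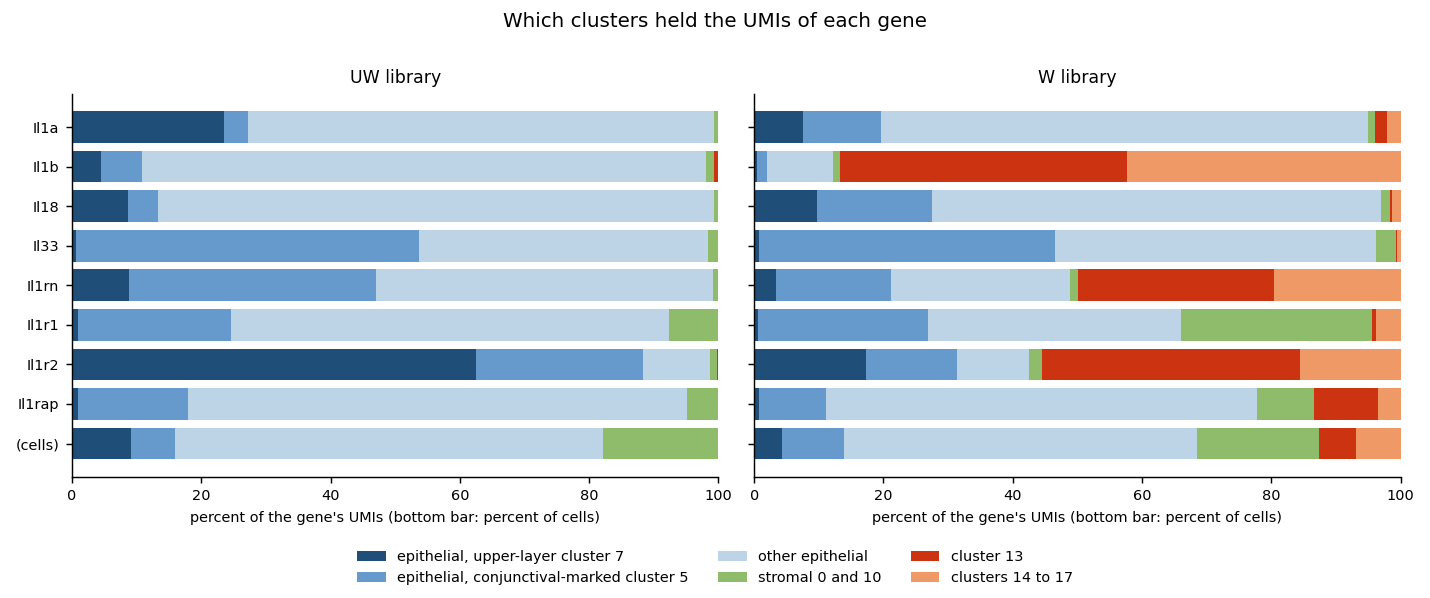
Share of each gene's UMIs held by groups of clusters in the UW and W libraries, in percent, with the share of cells as the bottom bar. Clusters 13 to 17 hold little in UW and most of *Il1b* in W, where cluster 13 alone holds 44.4%, and cluster 7 holds 62.6% of *Il1r2* in UW.

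Summaries over the 8 genes depended on the cells taken. A gene was called past the fold when it differed at least 2-fold with at least 20 counts in both libraries together. In the summed epithelium 2 of 8 were called higher (*Il1b* and *Il33*) and 0 lower, where 21.8% of the 16439 genes measured there were called higher and 8.77% lower. Calls near 2-fold turned with the processing, since *Il1a* was past it in 4 of 10 alternatives, at up to 1.51 with equal weighting, and *Il18* was past it in 3 of 10, at down to -1.19 with size factors. In cluster 0, 6 of 8 were called higher, all but *Il1rn* and *Il18*, and 0 lower, where 7.34% of 14245 genes were called higher and 9.67% lower. In cluster 10, 5 of 8 were called higher and 0 lower, where 4.97% of genes were called higher and 6.63% lower. The median log2 ratio of the 8 was 0.57 in the epithelium, 1.49 in cluster 0 and 1.33 in cluster 10, beside medians over all genes of 0.22, -0.15 and -0.09. Some of these stromal calls were inside the range of other cells' markers. In cluster 0 *Il1a* was inside the range of the epithelial markers and past 2-fold by a small margin (log2 ratio 1.00). *Il1b* and *Il1r2* stood there at 0.0788% and 0.187% of their level in cluster 13, where the highest of the 7 immune markers stood at 0.230%. Of the 7, 4 stood above *Il1b* and 1 above *Il1r2*. In cluster 10 *Il1b*, *Il1rn* and *Il1r2* stood at 0.250%, 0.419% and 0.417%, where the highest of the 7, *Srgn*, stood at 1.44%. There 5 of the 7 stood above *Il1b*, but only 2 above *Il1rn* and 2 above *Il1r2*. The 7 were chosen as genes that epithelium should lack, and their fit as a background for stroma was not tested. *Il1rap* was above all 7 in both, at 4.01% of the level in cluster 13. Without cells holding immune markers its log2 ratio in cluster 10 was 0.94, within 2-fold. The summed level of 8 neutrophil markers moved with these stromal values, from 2.18 to 89.6 CPM in cluster 0 and from 2.10 to 156 in cluster 10. *Il33* in cluster 0 was above the epithelial markers there, as given with its levels.

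**Figure D3:**
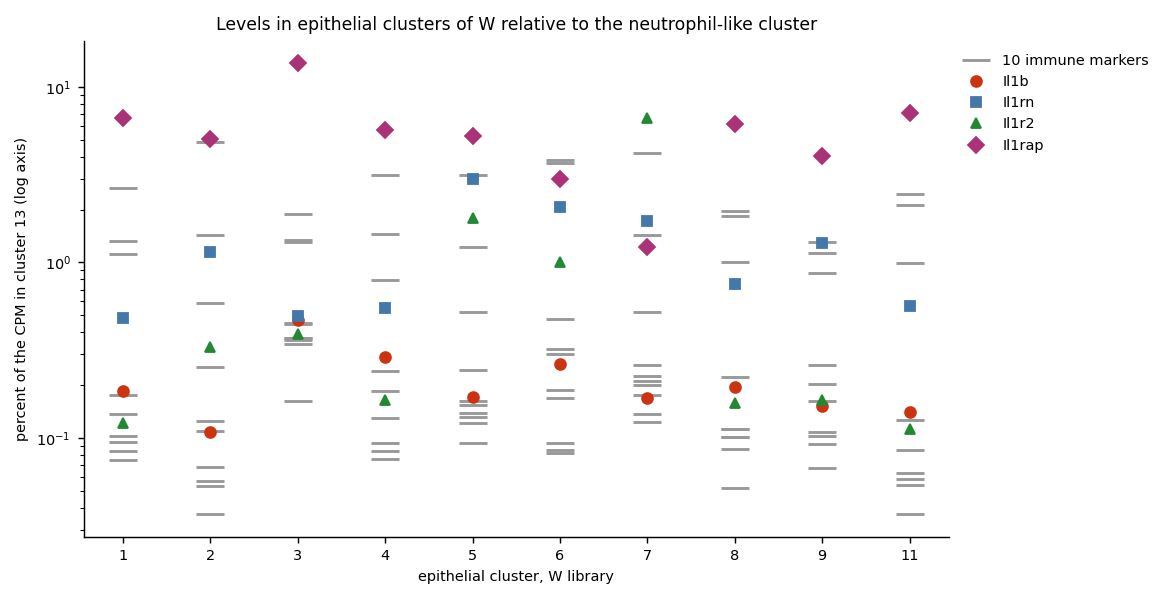
Level of *Il1b*, *Il1rn*, *Il1r2* and *Il1rap* in each epithelial cluster of W as a percent of the level in the neutrophil-like cluster 13 (log axis), beside 10 immune markers (grey, with 3 values of 0 not drawn). *Il1b* lies between 0.109% and 0.470%, among or just above the 7 markers that epithelium should lack, and *Il1rap* lies between 1.22% and 13.6%, with *S100a9*, *S100a8* or *Lyz2* as the highest grey mark in each cluster.

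Other members of the family were read in the same way. Among the other ligands and soluble inhibitors, 3 of 6 were called higher and 2 lower in the epithelium, beside 21.8% and 8.77% of all genes. In clusters 0 and 10, 7.34% and 4.97% of all genes were called higher. *Il18bp*, the soluble inhibitor of IL-18, was higher, from 1.05 to 5.43 CPM (log2 ratio 2.36), as were *Il1f6* (IL-36 alpha), from 6.79 to 18.9, and *Il1f9* (IL-36 gamma), from 13.6 to 29.8. The log2 ratio of *Il1f9* was 1.13, and TMM or size factor scaling, each a shift of -0.21, puts it within 2-fold. *Il1f5*, the IL-36 receptor antagonist, was lower, from 7.72 to 1.61 CPM (log2 ratio -2.26), and in its main site, cluster 7, it went from 27.6 to 5.61 while *Il1f6* went from 52.4 to 179. *Il1f10* went from 38 counts to 0. In cluster 7 the agonist and the antagonist of the IL-36 receptor thus differed in opposite directions. The makeup of cluster 7 moved too. Summed levels went from 59311 to 31302 CPM for 9 upper-layer markers, from 1924 to 7480 for 8 basal-layer markers and from 4021 to 12280 for 4 conjunctival markers. The part of this in these and the other ratios of cluster 7 was not tested. In cluster 0, 3 of 4 measured were called higher, of which *Il18bp* went from 3.34 to 48.4 CPM (log2 ratio 3.86), and *Il1f6* and *Il1f9* stayed under 1.5 CPM. These 2 stood at 0.602% and 0.993% of their level in epithelial cluster 7, below the epithelial markers in cluster 0. In cluster 10 the single gene measured, *Il18bp*, was higher, from 5.25 to 20.2 CPM.

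Among the other receptors, *Il1rl1*, the receptor for IL-33, had no UMI in UW epithelium or stroma. In W it stood at 20.2 CPM (18.6 to 21.8) in the keratocyte-like cluster 0, with 654 UMIs, at 6.61 in cluster 10 and at 42.3 (30.8 to 56.8) in cluster 16. With 3 counts put in for the UW sum of 0, the log2 ratio in cluster 0 was 7.58. In the epithelial clusters of W *Il1rl1* summed to 1.72 CPM, 4.07% of the level in cluster 16. Shares of all genes called higher were 21.8% in the epithelium, 7.34% in cluster 0 and 4.97% in cluster 10, and 8.77% were lower in the epithelium. In the epithelium 2 of 6 were called higher, *Il1rl1* and *Il18rap*, the second at 1.79% of its level in cluster 13, and 1 lower, *Il1rapl1* with 66 counts in UW and 1 in W. In cluster 0, 3 of 4 were higher, with *Il1rl2*, the IL-36 receptor, from 0.738 to 3.205 CPM and *Sigirr* from 0.422 to 1.202, and in cluster 10, 1 of 2. *Il18r1*, the IL-18 receptor, was highest in cluster 5 in UW at 26.2 CPM and in cluster 16 in W at 107.

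Most of the intracellular signalling genes were within 2-fold, as most of all genes were. Over all genes, 21.8% were called higher and 8.77% lower in the epithelium. These shares were 7.34% and 9.67% in cluster 0 and 4.97% and 6.63% in cluster 10. Of the 17 signalling genes 2 were called higher in the epithelium, *Irak1bp1* (log2 ratio 1.21) and *Tab1* (1.00), and 0 lower. In clusters 0 and 10 none of the 17 was called. Their medians were -0.17, -0.08 and -0.11. Within 2-fold in the epithelium, *Peli2* (log2 ratio -0.87), *Irak2*, a receptor-associated kinase family member (-0.84), *Chuk*, a kinase of the NF-kB pathway (-0.71), and *Tab2* (-0.57) had intervals below 0. TMM scaling shifts every epithelial ratio by -0.21, which puts *Peli2* and *Irak2* past 2-fold and *Tab1* within it. Size factors also put *Irak1bp1* just within 2-fold, which leaves neither of the 2 higher calls. Among the genes for processing and release, 6 of 16 were higher in the epithelium and 1 lower. *Nlrp3* (5.10) and *Aim2* (4.98) had the largest log2 ratios, at 0.147% and 0.768% of the level in cluster 13. *Casp1*, which cuts IL-1 beta and IL-18, went from 1.46 to 8.18 CPM and *Casp4* from 1.98 to 10.9, at 23.3% and 13.5% of their highest levels elsewhere, and *Nlrp1b* was lower, with 66 and 11 counts. In cluster 0, 2 of 11 were higher, *Casp4* from 0.563 to 14.1 CPM and *Prtn3* from 0.703 to 4.53, and in cluster 10, 3 of 12, *Casp4*, *Nlrp3* and *Prtn3*. In cluster 10 of W *Nlrp3* stood at 3.85 CPM, 0.550% of its level in cluster 13, where the highest of the 7 immune markers, *Srgn*, stood at 1.44%.

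Of the textbook response genes of the pathway, which other signals also drive, most were called higher in each of the 3 groups. Among all genes the share called higher was 21.8% in the epithelium, 7.34% in cluster 0 and 4.97% in cluster 10. The share called lower was 8.77%, 9.67% and 6.63%. In cluster 0, 15 of 22 were called higher and 0 lower. *Saa3*, an acute phase protein, went from 0.879 to 3674 CPM, *Mmp3*, a matrix protease, from 4.22 to 4515, *Lcn2* from 0.457 to 425 and *Cxcl5*, a neutrophil attractant, from 0.598 to 112. In cluster 10, 17 of 22 were higher, led by *Saa3*, *Lcn2*, *Cxcl2* and *Mmp13*, with log2 ratios of 11.50, 5.15, 4.65 and 4.16, and 0 lower. *Cxcl2* in these stromal clusters stood at 0.165% and 0.505% of its level in cluster 13, below *Srgn* at 0.184% and 1.44%. In the epithelium 18 of 24 were higher and 1, *Il6*, lower. There the leading genes *Mmp3*, *Ccl2*, *Mmp9* and *Mmp13* stood at 0.934%, 0.386%, 0.172% and 6.51% of their highest level in another cluster. The stromal markers *Kera*, *Lum*, *Dcn*, *Col1a1*, *Col1a2*, *Col5a1* and *Pdgfra* stood at 0.534% to 1.41% in the same cells, and *Mmp3* was inside that range, as were *Saa3* at 0.644%, *Tnfaip6* at 0.732% and *Vcam1* at 1.06%, while *Cxcl5* at 0.428% was below it. These 5 were highest in cluster 0 or 10. *Mmp9*, *Cxcl2* and *Lcn2* were highest in cluster 13, and relative to it the 7 immune markers reached up to 0.452% in single epithelial clusters. *Mmp9* and *Cxcl2*, both at 0.172%, were below that and *Lcn2*, at 1.15%, was above it. *Ccl2* and *Mmp13* were highest in cluster 15, for which no such range was computed. Whether the epithelial cells hold these transcripts themselves was not tested.

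**Figure D4:**
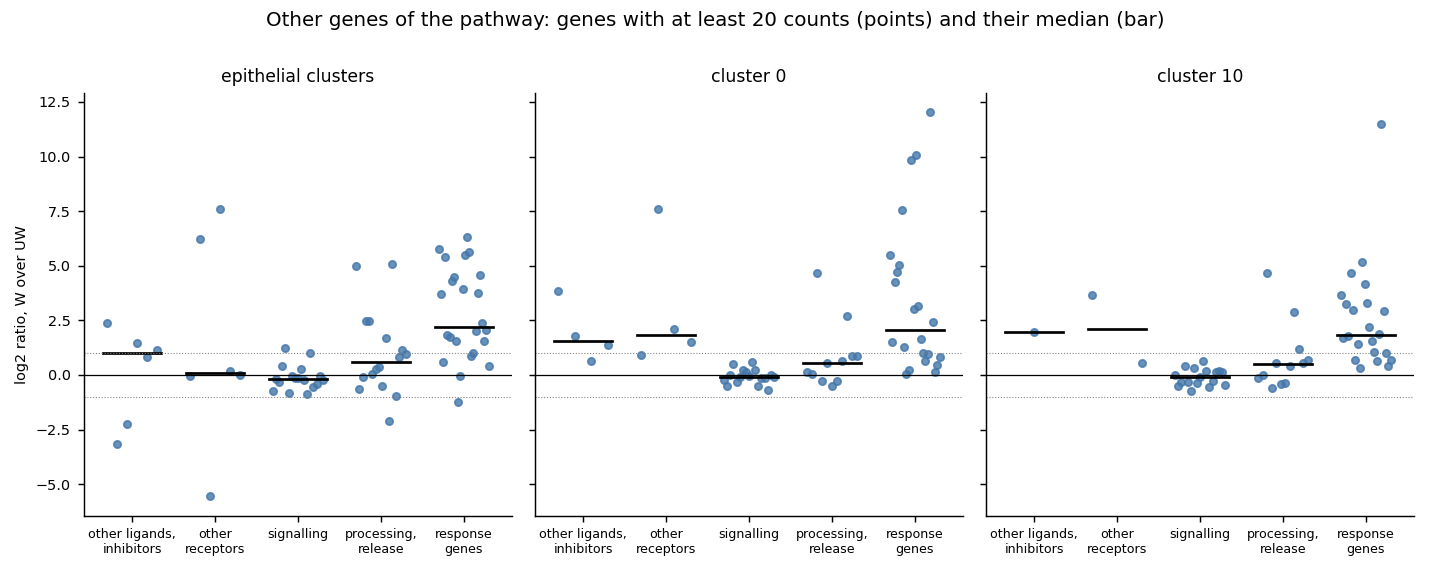
Log2 ratio of W over UW for the other genes of the pathway with at least 20 counts, as points by list, in the epithelium, cluster 0 and cluster 10, with bars at the medians and dotted lines at 2-fold. Ratios against a sum of 0 are drawn at their bound, signalling genes have medians of -0.17, -0.08 and -0.11, and response genes have medians of 2.22, 2.05 and 1.83.

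Likeness of pattern was described by Pearson's r of log2(CPM + 1) over 28 profiles of a cluster in a library, which share libraries and cell types. The genes nearest to *Il1b* were *Wfdc17*, *Clec4d* and *Clec4e* (r of 0.985, 0.984 and 0.984), and those nearest to *Il18* were *Clic3*, *Tprg* and *Mal* (0.962, 0.961 and 0.961). *Il1a* was nearest to *Ssu72*, *Gng5* and *Ier5* (0.939, 0.916 and 0.911), and *Il33* to *4833423E24Rik*, *Serpinb3a* and *Agr2* (0.901, 0.857 and 0.836), of which *Serpinb3a* leads cluster 5. *Il1rn* was nearest to *Mcl1*, *Ccl6* and *AI839979* (0.916, 0.876 and 0.873), and *Il1r2* to *Tnf*, *AC139671.1* and *Slpi* (0.891, 0.863 and 0.854). *Il1rap* was nearest to *Tnfrsf23*, *Klhdc4* and *Ubap1* (0.920, 0.862 and 0.847), and *Il1r1* to *Rusc1*, *Iqgap2* and *Ern1* (0.871, 0.801 and 0.791). Among the 8 genes themselves the closest pairs were *Il1rn* with *Il1r2* (0.836) and with *Il1b* (0.814), and *Il1a* with *Il18* (0.755), while the highest r of *Il1r1* was 0.420, with *Il33*.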

How the data were processed

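Corneas of UW and W mice were digested with dispase, trypsin and collagenase and pooled by condition. The kit is version 2 in the methods and version 3 in the labels. UMI counts per gene and cell were made by the authors with Cell Ranger 3.1.0 against mm10 by the methods, whereas the submitters' processing notes list mm9. The authors filtered cells in Seurat and identified doublets with DoubletFinder before deposit. The deposited counts were not normalized. The shallowest cell in the table had 501 genes, the highest mitochondrial share was 9.99%, no cluster numbered 12 is in it, and both libraries hold fewer cells than the study gives after its filters.

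Counts were read in Python 3.11.15, taken by deposited cluster and library and summed. CPM carry exact Poisson 95% intervals, ratios of 2 sums the exact conditional binomial interval and shares the Clopper-Pearson interval. A ratio against a sum of 0 used 3 counts. Each library is 1 sample, so no test was run. Clusters were named from marker lists and left unnamed where leading genes of other classes entered. No further doublet caller was run, and 305 UW and 164 W cells that a first deposited call names doublets, while the final call names every cell a singlet, were left out in an alternative. Cluster 17, with 29 cells, entered no comparison.

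The genes and lists were chosen with earlier results of these data known. Named genes are the 8 members, the 3 nearest genes of each, 2 leading genes per cluster, and at most 4 genes per list and direction by size of the ratio. Genes singled out as markers of free RNA and the values of *Il18r1* were chosen after their values were seen. Likeness was computed over 11715 genes reaching 10 CPM. Of the 20198 genes, 19908 were found by symbol in GENCODE M21. The planned protein comparison was not done, since no protein table was used here. Alternatives were TMM (edgeR 4.0.16) and size factor (DESeq2 1.42.0) scaling of the sums, which run no test, stricter cell filters, thinning and other weightings, and these scalings within single epithelial clusters were chosen after seeing the data. The ratios, intervals and calls were tried on simulated Poisson counts with known folds. Those counts hold no variation between mice or libraries and no free RNA, so this checks the computation only.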

Additional observations from a re-analysis of the deposited data

Results flagged for a closer look

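4 genes had counting intervals on opposite sides of 0 in different clusters. Each difference below is the largest log2 ratio of W over UW minus the smallest, it rests on 1 library per condition, and it was not tested. *Il1rn* was higher in cluster 3 (2.72) and lower in cluster 5 (-0.60), a difference of 3.33. *Il1r1* was higher in the keratocyte-like cluster 0 (1.94) and lower in epithelial cluster 4 (-0.62), a difference of 2.57. *Il1rap* was higher in cluster 3 (2.30) and lower in cluster 5 (-0.60), a difference of 2.90. *Il18* was higher in cluster 7 (0.37) and lower in cluster 2 (-0.74), a difference of 1.11, and with TMM scaling, which shifts cluster 7 by -0.26 and cluster 2 by 0.12, both kept their direction.

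Cluster 17, outside every comparison, held 29 cells, all of W, with genes of stroma and of neutrophils. *Il1b* stood there at 392 CPM and 22 of the 29 cells had a UMI of it.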

How the results depend on the processing

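No paired analysis was possible because each condition was 1 library, and for the same reason no library could be left out. Values below are log2 ratios of W over UW in the summed epithelium that moved by more than their counting interval. With TMM scaling, which shifts this comparison by -0.21, they were 0.74 for *Il1a*, 0.17 for *Il1rn*, -0.074 for *Il1r1*, 0.199 for *Il1r2*, 0.53 for *Il1rap*, -1.18 for *Il18* and 1.49 for *Il33*, and with size factors 0.73, 0.17, -0.079, 0.19, 0.52, -1.19 and 1.49. With each cluster weighted equally *Il1a* was 1.51, *Il1r1* -0.071, *Il1r2* 0.82, *Il1rap* 0.61, *Il18* -0.31 and *Il33* 1.37. As a mean over cells *Il1a* was 1.24, *Il1rn* 0.55, *Il18* -0.75 and *Il33* 1.51, and after thinning to 5000 UMIs they were 1.1998, 0.51, -0.79 and 1.44. Without the conjunctival cluster *Il1a* was 0.92, *Il1rn* 0.54, *Il1r1* -0.056, *Il1rap* 0.93, *Il18* -1.09 and *Il33* 2.001. Without the 2 cycling clusters *Il1a* was 1.17, *Il1rn* 0.51, *Il1r1* 0.29, *Il1r2* 0.71, *Il18* -0.72 and *Il33* 1.83. Of the epithelial cells, 2.31% in UW and 26.5% in W held a UMI of 6 immune markers, and without them *Il1b* was 2.90 and *Il1rn* 0.31. Requiring 1000 genes and at most 5% mitochondrial UMIs gave 0.91 for *Il1a*, and shares of W UMIs in immune clusters of 83.9% for *Il1b*, 46.7% for *Il1rn* and 50.7% for *Il1r2*. With no minimum count, 1612 genes were called higher in cluster 0 (1045 with it), 1058 higher in cluster 10 (618) and 1426 lower (825), by construction. The causes of the other shifts were not tested. In clusters 0 and 10 the 7 alternatives run left all 8 ratios within their counting intervals, but calls turned. *Il1a* in cluster 0 was 0.997 without doublets of a first call, *Il1rn* in cluster 0 1.03 and *Il1a* in cluster 10 1.40 after thinning, and *Il1rap* in cluster 10 0.94 without cells holding immune markers. *Il1b* in cluster 10 was 2.82 after thinning against 5.29, and *Il33* there, not called, was -0.058 with the stricter cell filter and -0.55 as a mean over cells. In single epithelial clusters 144 rescaled ratios stayed within theirs and 16 did not. Depth limits *Il1b*, *Il1r2* and *Il33* in UW, where most clusters held fewer than 50 counts.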
